A study of Homo sapiens with 6 samples.

Results

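The genes described here encode the proteins that liver and visceral endoderm release into blood plasma, together with FABP1, which stays inside the cell. The list of 52 gene symbols was chosen by protein function, and all 52 were found among the 23615 genes of the deposited table. Ectoderm was specified from H1, a human ES cell line in wide use (hESCs), by 3 days in 0.5 nM BMP-4, after which the cells were kept to day 10 without BMP-4 in 10% FCS. Throughout, they received either 5 μM DAPT, which blocks the γ-secretase complex and with it the release of the Notch intracellular domain, or only the ethanol in which it was dissolved. RNA of day 10 came from 3 libraries per treatment, 6 in all, of a single cell line, and the sources used here do not say whether the libraries came from separate cultures. Such cultures can hold several cell types.

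The deposited table gives 1 FPKM value (fragment count scaled by transcript length and library size) for each gene and treatment, combined by the authors over the 3 libraries. Values of single libraries were not analysed here. Therefore none of the differences below has a replicate check, and no SD, interval or p-value is given. A gene is described as lower or higher with DAPT when the fold between the treatment values was over 2 and at least 1 treatment reached 1 FPKM. The 2 sheets of the table name the treatments in opposite ways over the same values, and the sheet of changed genes, whose naming goes with the directions in the study's text, was followed. With the other naming every direction given here would turn around.

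Plasma proteins carry hormones, vitamins, heme and lipids, build clots and dissolve them, inhibit proteases and form the complement system. In the adult most of them are made by hepatocytes. Before the liver has formed, the visceral endoderm of the yolk sac makes several of the same proteins, with α-fetoprotein and transthyretin among the most typical. In both tissues their genes are known targets of HNF1, HNF4 and FOXA transcription factors. Some of the listed genes, among them SERPING1, SERPINF1, A2M and PROS1, are also known to be expressed by many cells outside endoderm.

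To show the letters that recur before the start sites of these genes, RefSeq promoter sequence (GRCh38.p14) is given for 6 genes with a match to one arm of the HNF1 site, GTTAAT on either strand, and for VTN, which held the longer HNF4 motif. They were chosen to set genes that reached 1 FPKM (AFP, F2, FABP1, FGB and VTN) beside close neighbours of AFP and FGB that did not (ALB and FGA). Each line below is written 5′ to 3′ along the gene, ends at the last base before the start, is 150 bases long and has the matched letters in capitals, which read as the reverse complement where the match was on the other strand (FGB, FGA, F2 and VTN).
AFP, chr4:73436071-73436220, plus strand: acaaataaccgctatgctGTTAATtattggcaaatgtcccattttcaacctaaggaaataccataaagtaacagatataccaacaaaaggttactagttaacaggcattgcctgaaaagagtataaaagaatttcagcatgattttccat
ALB, chr4:73404137-73404286, plus strand: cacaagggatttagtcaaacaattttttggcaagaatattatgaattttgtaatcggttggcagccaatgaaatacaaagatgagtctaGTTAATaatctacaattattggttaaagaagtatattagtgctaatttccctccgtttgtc
FGB, chr4:154562830-154562979, plus strand: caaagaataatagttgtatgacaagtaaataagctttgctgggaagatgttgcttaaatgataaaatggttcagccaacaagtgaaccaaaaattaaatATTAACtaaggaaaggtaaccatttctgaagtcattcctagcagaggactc
FGA, chr4:154590743-154590892, minus strand: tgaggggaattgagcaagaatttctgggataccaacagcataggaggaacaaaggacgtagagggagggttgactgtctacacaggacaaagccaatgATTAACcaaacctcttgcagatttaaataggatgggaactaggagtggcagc
F2, chr11:46719063-46719212, plus strand: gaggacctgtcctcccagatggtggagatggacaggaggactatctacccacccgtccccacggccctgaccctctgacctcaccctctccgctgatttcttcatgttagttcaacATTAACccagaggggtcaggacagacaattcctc
FABP1, chr2:88128063-88128212, minus strand: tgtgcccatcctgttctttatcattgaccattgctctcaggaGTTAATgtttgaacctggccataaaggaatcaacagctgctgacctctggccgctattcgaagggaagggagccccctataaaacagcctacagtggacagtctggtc
VTN, chr17:28370308-28370457, minus strand, HNF4 motif: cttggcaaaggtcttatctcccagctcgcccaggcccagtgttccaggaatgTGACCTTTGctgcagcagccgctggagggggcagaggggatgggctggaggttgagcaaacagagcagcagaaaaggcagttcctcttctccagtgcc

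The RefSeq table held a promoter for 41 of the 52 genes, and the genes without an entry were A2M, C3, HP, HPR, ITIH2, ORM2, SERPINC1, SERPINF1, SERPINF2, SERPING1 and TTR. Within 250 bases before the start, GTTAAT was found on either strand in 13 of the 41, or 31.7%, against 6.22% of 27305 promoters of the same length. The FOXA motif, TGTTTAC or TATTTAC, was found in 8 of the 41 (19.5%, against 5.35% of all promoters). The HNF4 motif, CAAAGTCCA or CAAAGGTCA, was found in 3 of the 41 (7.32%, against 0.634% of all promoters). Matches of different motifs did not overlap each other in the promoters of these genes. A promoter with a match did not mean a transcript in these cultures. Among the 13 genes with GTTAAT, only AFP, F2, FABP1 and FGB reached 1 FPKM. All 4 were lower with DAPT, but F2, FABP1 and FGB reached the level with ethanol alone and could only lie lower. Of the genes with the FOXA motif, FGB and PROS1 reached 1 FPKM, and PROS1 was not past 2-fold. ALB, with GTTAAT 61 bases before its start, stayed near 0. APOH and F13B, which also held GTTAAT, were listed at 0 in both treatments. These matches are descriptions of the letters in these windows, and no binding was measured.

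Of the 52 plasma protein genes, 21 reached 1 FPKM in at least 1 treatment, and 14 of them were lower with DAPT, 1 was higher and 6 were neither. Among all 13480 genes that reached this level, 5.81% were lower and 5.15% higher. The median log2 fold of DAPT over ethanol was -2.16 over the 21 genes and 0.000635 over all genes of this level, whose quartiles were -0.28 and 0.27. These counts need care, since 12 of the 21 genes reached 1 FPKM only with ethanol and therefore could only lie lower with DAPT. Of these 12, 10 were past the 2-fold limit. Over the 9 genes with at least 1 FPKM in both treatments, where this constraint is absent, 4 were lower (AFP, F10, TTR and VTN), 1 was higher (C5) and 4 were neither (A2M, PROS1, SERPINF1 and SERPING1), against 3.33% lower and 3.09% higher of all genes with that level in both. The median of these 9 was -0.39. Without any minimum, 39 of the 50 genes listed above 0 had the lower value with DAPT, against 51.2% of all genes above 0. Of the 50, however, 20 with the lower and 9 with the higher value were under 1 FPKM in both treatments. The directions of those genes are not usable. In RNA of whole cultures, fewer cells of a type and less RNA per cell cannot be told apart.

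The genes just inside and just outside the limit had similar values. SERPINF2 (log2 fold -1.14) and C5 (1.25) lay just inside it, and SERPINA5 (-0.96) and A1BG (-0.79) just outside. Genes of low level passed 2-fold more often in general, as 7.73% of all genes between 1 and 10 FPKM were lower with DAPT, against 3.54% of those between 10 and 100 FPKM. Of the plasma protein genes, 10 of 15 were lower in the first range and 4 of 6 in the second.

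**Figure D1:**
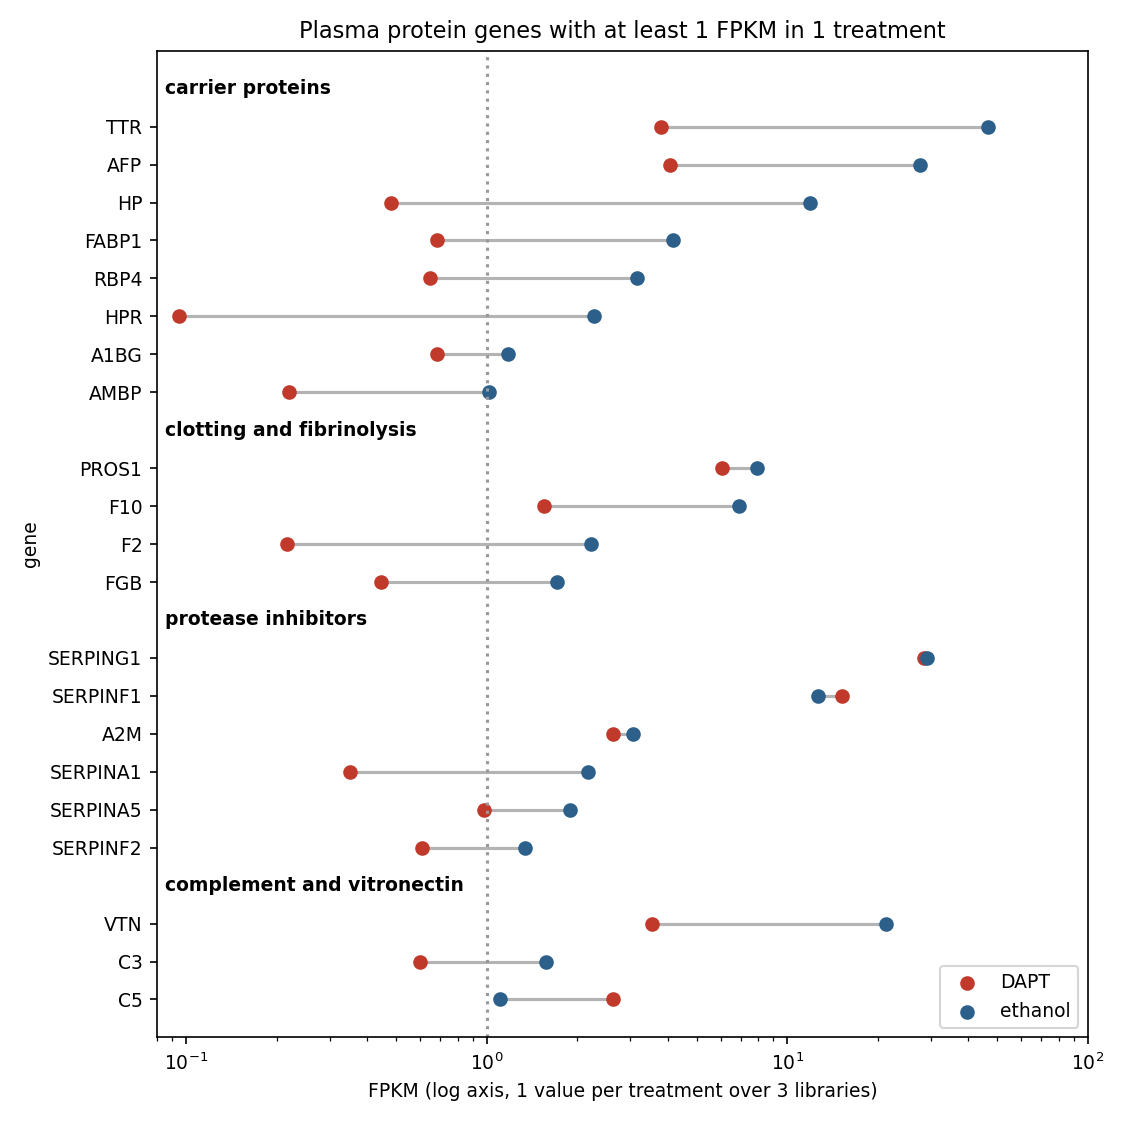
FPKM of the 21 plasma protein genes with at least 1 FPKM in 1 treatment, on a log axis, with 1 point for DAPT and 1 for ethanol per gene and no error bars because the table holds 1 value per treatment; the dotted line is at 1 FPKM. The DAPT points of TTR, AFP, HP and VTN lie far left of their ethanol points, those of SERPING1, SERPINF1, A2M and PROS1 lie close to them, and C5 runs the other way.

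**Figure D2:**
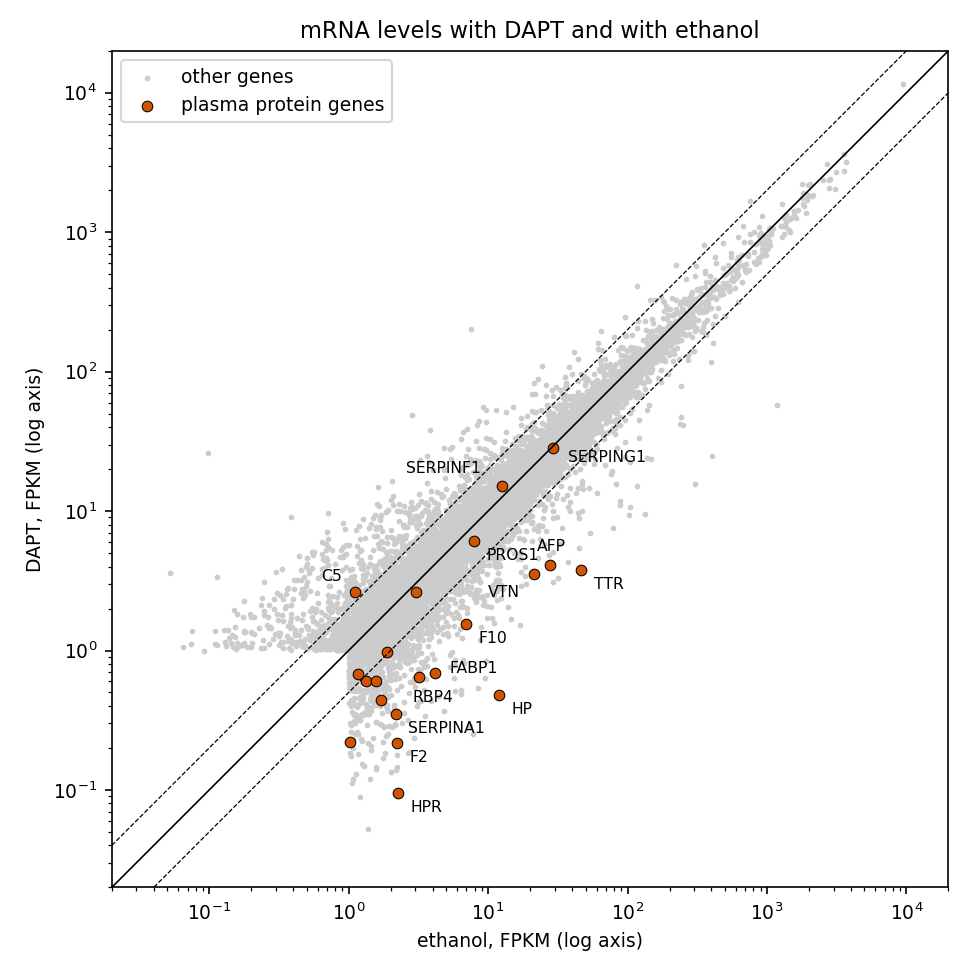
Each point is 1 gene with at least 1 FPKM in 1 treatment, with its ethanol level on the horizontal and its DAPT level on the vertical log axis; the solid line marks equal levels and the dashed lines a 2-fold difference. The empty lower left corner is the filter, 111 genes below 0.02 FPKM in 1 treatment are not drawn, and 14 of the 21 plasma protein genes lie below the lower dashed line.

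Taken as a sum, the 52 genes had 195.5 FPKM with ethanol and 76.6 FPKM with DAPT, a ratio of 2.55. The order of the genes changed with it. With ethanol the 6 genes over 10 FPKM were TTR, SERPING1, AFP, VTN, SERPINF1 and HP, and with DAPT only SERPING1 and SERPINF1 were over 10 FPKM. The group of 4 made of TTR, AFP, VTN and HP gave 55.0% of the sum with ethanol and 15.5% with DAPT. The pair of SERPING1 and SERPINF1 gave 21.4% and 57.1%, with nearly the same FPKM in both treatments. Without this pair the sums were 153.7 FPKM with ethanol and 32.8 FPKM with DAPT.

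Carrier proteins held most of the large differences. Of 16 such genes 8 reached 1 FPKM, and 7 of these were lower with DAPT, 5 of them through the ethanol value alone, with no gene higher (all genes of this level: 5.81% lower). TTR (chromosome 18, 29171729 to 29178986 of hg19), which encodes the thyroxine and retinol carrier transthyretin, was the most abundant of all 52 with ethanol, at 46.5 FPKM, and had 3.79 FPKM with DAPT, a 12.3-fold difference. AFP (chromosome 4, 74301932 to 74321492), which encodes the main plasma protein of the early embryo, had 27.7 FPKM with ethanol and 4.07 FPKM with DAPT, a 6.81-fold difference. Both stayed clearly above 1 FPKM with DAPT. RBP4, which encodes the retinol-binding protein that travels in a complex with transthyretin, had 3.17 FPKM with ethanol and 0.650 FPKM with DAPT. The retinol carrier and its partner were thus both lower, TTR by a larger fold than RBP4 (4.88-fold).

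Among the 21 genes that reached 1 FPKM, the largest folds were those of the haptoglobin pair. HP (chromosome 16, 72088507 to 72094955), whose product binds free hemoglobin, had 11.9 FPKM with ethanol and 0.481 FPKM with DAPT, a 24.8-fold difference. Its neighbour HPR (72097124 to 72111145), which encodes haptoglobin-related protein, had 2.27 and 0.0950 FPKM, a 23.9-fold difference. The HPR value was 19.1% of the HP value with ethanol and 19.8% with DAPT. The genes are near-identical copies whose reads can be divided between them, so the HPR value is uncertain, and whether it has transcripts of its own was not tested. HPX, which encodes the heme carrier hemopexin, stayed just under 1 FPKM, at 0.974 with ethanol and 0.445 with DAPT.

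The lipid and small-molecule carriers were low but also lower with DAPT. FABP1, the fatty acid-binding protein of liver and intestine, had 4.17 FPKM with ethanol and 0.686 FPKM with DAPT (6.07-fold). AMBP, whose precursor is cut into α1-microglobulin and the protease inhibitor bikunin, had 1.02 and 0.220 FPKM. A1BG, a plasma glycoprotein gene, had 1.18 and 0.681 FPKM and was not past 2-fold. Its locus overlaps the rows of A1BG-AS1 and ZNF497 in the table, and whether the counting used strand is not stated in the methods.

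Several other carriers of adult plasma, albumin among them, were nearly absent. ALB (chromosome 4, 74269971 to 74287129), which encodes serum albumin, had 0.0660 FPKM with ethanol and 0.0128 FPKM with DAPT. TF, which encodes the iron carrier transferrin, had 0.0849 and 0.110 FPKM. AHSG, which encodes fetuin-A, had 0.235 and 0.0556 FPKM, and the acute-phase genes ORM1 and ORM2 lay at or below 0.0652 FPKM in both treatments. The hormone carrier genes SERPINA6 for cortisol and SERPINA7 for thyroxine were at or below 0.0254 FPKM. Levels this low give no usable direction.

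The genes of clotting and fibrinolysis were mostly silent or low, and 4 of 15 reached 1 FPKM. F10, which encodes factor X at the junction of the clotting pathways, had 6.92 FPKM with ethanol and 1.55 FPKM with DAPT (4.46-fold). F2, which encodes prothrombin, the substrate of activated factor X, had 2.22 and 0.217 FPKM (10.2-fold). FGB, the fibrinogen β chain gene, had 1.72 and 0.444 FPKM (3.88-fold). These 3 were lower with DAPT, F2 and FGB by passing the level with ethanol alone (all genes of this level: 5.81% lower). Of the 2 clotting genes with at least 1 FPKM in both treatments 1 was lower, against 3.33% of all genes with that level in both. The remaining gene, PROS1 for the anticoagulant cofactor protein S, was the most abundant of the group, at 7.95 FPKM with ethanol and 6.09 FPKM with DAPT, and was not past 2-fold.

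The other 11 clotting genes were under 1 FPKM in both treatments. FGA for the fibrinogen α chain had 0.753 FPKM with ethanol and 0.106 FPKM with DAPT, and FGG for the γ chain had 0.141 and 0.0680 FPKM. The 3 chains are needed in equal numbers for a fibrinogen molecule, yet with ethanol FGB was 2.28 times the level of FGA and 12.2 times that of FGG, both per length of transcript. F12 for factor XII (0.349 and 0.174 FPKM with ethanol and DAPT) and PLG for plasminogen (0.166 and 0.0605 FPKM) had the lower value with DAPT. PROC for protein C, which protein S assists, had the higher value with DAPT, 0.601 against 0.384 FPKM. F5, F7, HRG and KNG1 were at or below 0.137 FPKM, and APOH and F13B were listed at 0 in both treatments.

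Protease inhibitors divided into genes that differed little and genes that were lower with DAPT. Of 14 genes 6 reached 1 FPKM, 2 of these were lower, none was higher and 4 were neither (all genes of this level: 5.81% lower). Both lower genes reached the level with ethanol alone, and of the 3 with at least 1 FPKM in both treatments 0 were lower. SERPING1, which encodes the C1 inhibitor of complement and the contact system, had 29.2 FPKM with ethanol and 28.5 FPKM with DAPT, a 1.03-fold difference. SERPINF1, which encodes the antiangiogenic factor PEDF, had 12.6 and 15.2 FPKM, and A2M, which encodes the broad inhibitor α2-macroglobulin, had 3.06 and 2.63 FPKM. The A2M locus overlaps the row of A2M-AS1. None of these 3 was past 2-fold, and all 3 were at or above 2.63 FPKM in both treatments.

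SERPINA1, which encodes α1-antitrypsin, the elastase inhibitor of liver and yolk sac, had 2.18 FPKM with ethanol and 0.351 FPKM with DAPT (6.20-fold). SERPINF2 for α2-antiplasmin, the plasmin inhibitor, had 1.34 and 0.609 FPKM (2.20-fold). SERPINA5 for the protein C inhibitor had 1.90 and 0.979 FPKM, a 1.94-fold difference just short of the limit. SERPINC1 for antithrombin stayed at 0.260 and 0.0564 FPKM, and SERPINA3, SERPINA10 and SERPIND1 at or below 0.0647 FPKM. The SERPIND1 locus lies within that of PI4KA. The genes of the inter-α-trypsin inhibitor heavy chains, ITIH1 to ITIH4, were also low, the highest being ITIH4 with 0.170 FPKM with ethanol and 0.260 FPKM with DAPT.

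Vitronectin and the complement components went different ways. VTN (chromosome 17, 26694298 to 26697373), whose product is an adhesive protein of plasma and matrix that also protects cells from the complement pore, had 21.4 FPKM with ethanol and 3.54 FPKM with DAPT, a 6.05-fold difference. C3, the central component of the cascade, had 1.58 and 0.602 FPKM (2.62-fold) and reached 1 FPKM with ethanol alone. C5 (chromosome 9, 123714613 to 123812554), which is cleaved downstream of C3, was the single gene of the 52 that was higher with DAPT, at 2.64 FPKM against 1.11 FPKM with ethanol, a 2.38-fold difference. C3 and C5 are related in sequence and act one after the other, and their values ran in opposite directions. The other 4 genes, C4BPA, C9, CFB and CFI, were at or below 0.117 FPKM. The CFB value belongs to an alternative haplotype sequence of chromosome 6.

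Some neighbouring genes differed widely in level, and others were alike in being nearly absent. Grouping members closer than 500 kb gave 9 clusters with 25 members. In the albumin cluster of chromosome 4 (74269971 to 74321492), ALB and AFP lie within 51.5 kb, and AFP was 420.3 times the level of ALB with ethanol and 318 times with DAPT, both per length of transcript. In the F7 and F10 pair of chromosome 13 (113760101 to 113803843), F10 had 6.92 FPKM with ethanol, whereas F7 for factor VII had 0.0595 FPKM. In the SERPINA cluster of chromosome 14 (94749649 to 95090390), SERPINA1 and SERPINA5 were above 1 FPKM with ethanol, and SERPINA3, SERPINA6 and SERPINA10 were at or below 0.0572 FPKM. On chromosome 17 SERPINF2 (1646129 to 1658559) was lower with DAPT and its neighbour SERPINF1 (1665258 to 1680859) was not.

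The other clusters held mostly genes under 1 FPKM, whose values give no usable direction. In the fibrinogen cluster of chromosome 4 (155484131 to 155533902) the ethanol values of FGB, FGA and FGG were 3.88, 7.07 and 2.07 times the DAPT values, with FGA and FGG under 1 FPKM. AHSG, HRG and KNG1 on chromosome 3 had 0.235 FPKM or less. On chromosome 9 AMBP reached 1.02 FPKM with ethanol, while ORM1 and ORM2 had 0.0478 and 0.0652 FPKM. The ITIH1, ITIH3 and ITIH4 cluster of chromosome 3 held values up to 0.260 FPKM, with ITIH1 and ITIH3 at 0.0218 and 0.0235 FPKM with ethanol.

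**Figure D3:**
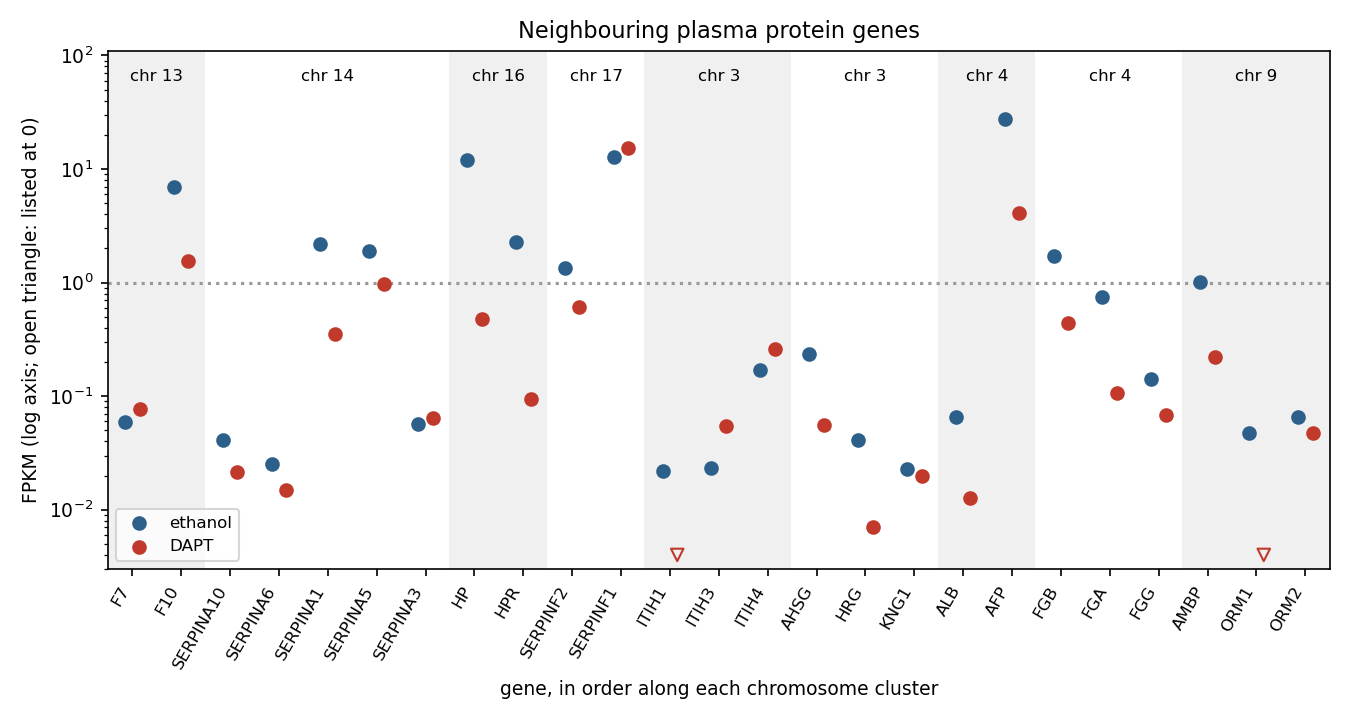
FPKM of the 25 plasma protein genes that lie in 9 clusters, on a log axis, in their order along each chromosome; filled points are the ethanol and DAPT values, open triangles mark genes listed at 0 and the dotted line is at 1 FPKM. Some genes a short distance apart differ widely in level, as AFP at 27.7 FPKM and ALB at 0.0660 FPKM with ethanol.

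The name of the gene group was set against markers of its source tissues. Of 9 genes typical of visceral endoderm and yolk sac, 7 reached 1 FPKM and 6 were lower with DAPT (all genes of this level: 5.81% lower). The summed level of the 9 was 104.9 FPKM with ethanol and 15.2 FPKM with DAPT. TTR and AFP, themselves members of the list, are part of these counts and of this sum, and make most of the sum with ethanol. The others past 2-fold were GATA4, HNF4A, FOXA2 and SOX17, the last 3 of which reached 1 FPKM with ethanol alone. Of the 4 markers with at least 1 FPKM in both treatments 3 were lower, against 3.33% of all genes of that level. These 3 were TTR, AFP and GATA4, and only GATA4 is not a member of the list, so the count is no separate check of its name. The endocytic receptor LRP2 had the higher value with DAPT (3.30 against 1.82 FPKM) and was not past 2-fold. CUBN (0.231 with DAPT and 0.495 with ethanol) and AMN (0.0403 and 0.479) were under 1 FPKM, where directions are not usable. Of 5 hepatocyte markers 2 reached 1 FPKM, CPS1 and ASGR1, and neither was past 2-fold. The sum of the 5 was 3.69 FPKM with ethanol and 3.66 FPKM with DAPT. Nearly all of it came from CPS1 (1.88 FPKM with ethanol and 2.58 FPKM with DAPT) and ASGR1 (1.69 and 1.00 FPKM). The other 3, ALB, CYP3A4 and TAT, were at or below 0.0660 FPKM, where directions are not usable. The gene group was thus expressed with AFP and TTR, which visceral endoderm also makes, and nearly without albumin.

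Markers of other tissues that can express some of the genes were measured too. The 5 choroid plexus markers, a brain epithelium rich in TTR, summed to 127.1 FPKM with ethanol and 75.4 FPKM with DAPT, mostly from AQP1, which was not past 2-fold, with FOLR1 lower with DAPT (3.37 against 8.04 FPKM) and CLIC6 and KL at or below 0.0781 FPKM. The 4 intestine markers summed to 9.83 and 3.25 FPKM, where VIL1 was lower with DAPT (0.765 against 5.34 FPKM) and FABP2 was listed at 0 with ethanol. CDX2 had 2.39 FPKM with DAPT against 4.36 FPKM with ethanol and was not past 2-fold. The 5 myeloid markers summed to 3.70 and 2.86 FPKM, with CSF1R higher with DAPT (1.22 against 0.288 FPKM) and PTPRC at or below 0.0113 FPKM in both treatments. CD68 had 1.59 FPKM with DAPT against 3.17 FPKM with ethanol and was not past 2-fold. The 4 trophoblast markers summed to 2.33 and 1.80 FPKM. The part of any of these tissues in the levels of the plasma protein genes was not tested.

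Further plasma proteins of liver that are not in the list were taken without the apolipoproteins, and few of them were expressed. Some apolipoprotein genes were abundant, as APOA1 with 402.6 FPKM with ethanol and 24.7 FPKM with DAPT. Of the 34 genes taken, 5 reached 1 FPKM, and all 5 were lower with DAPT (all genes of this level: 5.81% lower). At least 1 FPKM in both treatments was reached by 3 of them (3.33% of all genes with that level in both were lower). They were CPN1, the catalytic chain of carboxypeptidase N (0.153 FPKM with DAPT against 1.25 with ethanol), AGT for angiotensinogen (0.421 against 1.52), KLKB1 for plasma prekallikrein (1.51 against 3.91), HPN for the membrane protease hepsin (2.67 against 6.32) and SEPP1 for selenoprotein P (9.47 against 19.7). Other late liver genes, such as CRP and F9, were listed at 0 in both treatments.

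The transcription factors that are known to bind the promoters of plasma protein genes were in part lower as well. Of 21 liver transcription factors 12 reached 1 FPKM, 8 of these were lower with DAPT and none was higher (all genes of this level: 5.81% lower). Among the 8, HNF4A, FOXA2, ONECUT1 and HHEX reached 1 FPKM with ethanol alone and could only lie lower. Of the 7 with at least 1 FPKM in both treatments 4 were lower, against 3.33% of all genes with that level in both. HNF4A had 6.36 FPKM with ethanol and 0.490 FPKM with DAPT. FOXA2 (4.79 and 0.370 FPKM), ONECUT1 (1.89 and 0.381 FPKM), GATA4 (12.4 and 2.39 FPKM) and FOXA3 (8.94 and 2.41 FPKM) were lower too. ZHX2, a repressor of AFP in mouse liver, had 5.80 and 4.64 FPKM and was not past 2-fold, and neither were CEBPB (2.45 and 2.30 FPKM) and CEBPD (1.61 and 2.22 FPKM).

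Genes of clotting and complement that are expressed mainly outside the liver lay nearer to equal levels. Of 17 clotting and fibrinolysis genes of this kind 14 reached 1 FPKM, all 14 in both treatments, with a median log2 fold of -0.13. Only SERPINE2, an inhibitor of thrombin and urokinase, was lower with DAPT (159.7 against 409.7 FPKM). This was 1 of 14, against 3.33% of all genes with that level in both. TFPI for the tissue factor pathway inhibitor (80.6 FPKM with ethanol and 44.1 FPKM with DAPT) and GAS6, a relative of protein S (69.7 and 96.8 FPKM), were not past 2-fold. Of 21 further complement genes that were found, 8 reached 1 FPKM, all 8 in both treatments, with a median of -0.23. Only MASP1, a protease of the lectin pathway, was lower with DAPT (5.80 against 25.1 FPKM), 1 of 8 against the same 3.33%. CLU, CD46 and CD59, which shield cells from complement, were the most abundant of the others. CLU had 59.4 FPKM with ethanol and 30.1 FPKM with DAPT, just short of the limit (log2 fold -0.98). CD46 (41.1 and 52.0 FPKM) and CD59 (29.0 and 45.2 FPKM) had the higher value with DAPT and were not past 2-fold.

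Receptors that take up plasma proteins mostly had like levels. Of 14 receptor genes 8 reached 1 FPKM, with a median log2 fold of -0.19. Only ASGR2, a chain of the liver asialoglycoprotein receptor, was lower with DAPT (0.169 against 1.76 FPKM), 1 of 8 (all genes of this level: 5.81% lower). ASGR2 reached 1 FPKM with ethanol alone and could only lie lower. TFRC for the transferrin receptor had 25.1 FPKM with ethanol and 24.2 FPKM with DAPT, while its ligand gene TF was at or below 0.110 FPKM. LRP1, which takes up A2M complexes, had 23.6 and 18.8 FPKM, and FCGRT, which recycles albumin and IgG, had 7.46 and 5.10 FPKM. Enzymes of the hepatocyte were rarely expressed, since 3 of 20 reached 1 FPKM. All 3 did so in both treatments, and 1 was lower, against 3.33% of all genes with that level in both. The lower gene was ASS1 of arginine synthesis (11.1 FPKM with DAPT against 22.8 FPKM with ethanol). FAH (8.43 and 8.37 FPKM with DAPT and ethanol) and CPS1 (2.58 and 1.88 FPKM) were not past 2-fold.

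**Figure D4:**
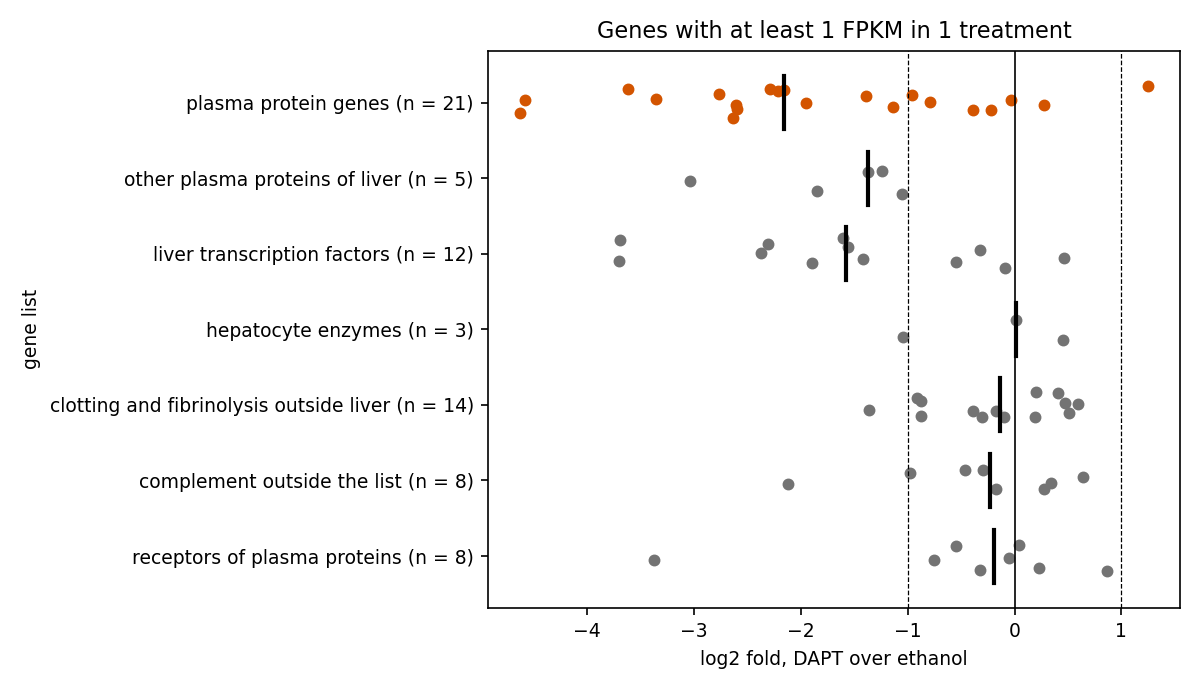
Each point is the log2 fold of DAPT over ethanol of 1 gene with at least 1 FPKM in 1 treatment, by gene list with the number of genes shown; thick bars are medians and dashed lines mark a 2-fold difference. The plasma protein genes (median -2.16) and liver transcription factors (median -1.58) lie mostly left of 0, partly because genes could pass the level with ethanol alone, and the clotting genes outside the liver (median -0.13) lie around 0.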

How the data were processed

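Stranded poly-A libraries of H1 hESCs, 3 with DAPT and 3 with ethanol, were sequenced. The authors mapped reads to hg19 with TopHat2 2.0.6 and computed FPKM values with Cufflinks, and the deposited tables give 1 FPKM value per treatment over its libraries. The annotation, the library scaling and the depth were not given in the sources used here, so low values have unknown counting error. The tables also hold the authors' own comparison (fold change, test statistic, p-value and q-value, with the status of the test), which was not used. The 2 sheets name the treatments in opposite ways. All 1417 rows of the sheet of changed genes had the same values in the sheet of all genes, and its naming was followed. A table with 1 value per treatment allows no test over libraries, and folds are plain ratios of the deposited values, with a minimum of 1 FPKM in 1 treatment and a limit of 2-fold. Every member past the minimum is named; of other lists, up to 5 genes past the limit with the largest fold and up to 3 others with the highest level are named, and further names were chosen after their values were seen. One gene that this rule names is not reported here. The members and lists were chosen with earlier results of these data known. The computation was tested on simulated data. Sequences are from RefSeq (GRCh38.p14) and were matched by symbol, with the first start listed for each gene, and loci are those of the deposited table (hg19). Analyses used Python 3.11.15 with pandas 2.3.3, numpy 2.4.6 and matplotlib 3.10.9.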

Additional observations from a re-analysis of the deposited data

How the results depend on the processing

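The 14 lower genes and 1 higher gene among the plasma protein genes were recounted under other settings. Centring all genes at 0, leaving out rows that share a locus or symbol, a fold limit of 1.5 and leaving out HPR kept between 13 and 16 lower genes. The minimum mattered more. At 0.1 FPKM, 22 members were lower with a median log2 fold of -1.39, and 1500 and 1220 of all genes were lower and higher. With no minimum, 27 were lower and 2 higher, with a median of -1.13, and 1880 and 1559 of all genes. At 5 FPKM, 5 of 8 were lower and 0 higher, and 356 of all genes in each direction. With 1 FPKM in both treatments, a setting chosen after seeing the data, as were a mean of 1 FPKM (12 lower) and leaving out HPR, 4 were lower with a median of -0.39, and 412 and 383 of all genes. Adding 1 FPKM to both values left 10 lower and 0 higher, with a median of -0.91, and 421 and 423 of all genes; AMBP, C3, FGB and SERPINF2 were then no longer past the limit, and neither was C5. Fold limits of 3 and 4 left 12 and 11 lower and 0 higher, with 377 and 364, then 236 and 262, of all genes, and a limit of 1.5 gave 1582 and 1458. Adding the same amount to both values cannot turn a direction around, and centring moved each log2 fold by only 0.000635. These settings are therefore no check of the directions. No paired analysis was possible because the table analysed gives 1 value per treatment, and for the same reason no library could be left out. The unknown depth limits the members under 1 FPKM, whose directions are not usable.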
